A study of Mus musculus with 6 samples.

Results

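The apolipoproteins of the liver were followed across 6 arrays of mouse liver RNA. Of 10 genes chosen by name, Apoa1, Apoa2, Apoa4, Apoa5, Apob, Apoc1, Apoc2, Apoc3, Apoe and Apom, 9 had a probe whose RefSeq name led to the gene, and Apoc2 was not analysed here. These 9 genes stand among 37074 on the array, where a sequence name without a matched symbol also counts as a gene. Of the 37074, 22319 were bright enough to be tested. The 9 genes were read by 11 probes, all of them well above background on all 6 arrays.

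The study set livers of L1-Tg mice against those of WT mice to describe basal differences, with both groups on CFD, the study's control-fat diet. L1-Tg mice are hemizygous for human NPC1L1, a sterol transporter, which the promoter of human APOE drives in hepatocytes. WT mice were littermates without the transgene, and both groups were male and came from a line crossed back to C57BL/6J for at least 8 generations. Each group had 3 arrays, and each array held RNA pooled from 2 or 3 mice, so replicate error here is the error between pools and not that between single mice. The methods give 1 age range for the mice of the study and an older age for mature adults in a dietary experiment. The age of the mice used for the arrays is not given separately in the sources used here. The array carries a probe for mouse Npc1l1, not for the human transgene, so it does not check the genotype. Its intensity ranged from 15.7 to 30.3 and was well above background on 1 L1-Tg array and 2 WT arrays.

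Apolipoproteins are the protein part of plasma lipoproteins, and the liver makes most of them. ApoB is the backbone of very-low-density lipoprotein and stays with its particle, whereas the small exchangeable apolipoproteins move between particles. Some build high-density lipoprotein, some turn lipoprotein lipase up or down, and apoE carries remnants to their receptors. Several of their genes lie side by side. In the GRCm38.p6 gene table Apoa1, Apoc3, Apoa4 and Apoa5 are neighbors on chromosome 9, Apoc2, Apoc4, Apoc1 and Apoe are neighbors on chromosome 7, and Apoa2, Apob and Apom lie on chromosomes 1, 12 and 17.

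The 250 bases before the transcription start are shown for 5 genes from RefSeq (GRCm38.p6), each 5′ to 3′ on the strand of the gene. Apoa1, Apoa5, Apob and Apom are shown because the L1-Tg and WT pools did not overlap on at least 1 of their probes. Apoe is shown because the promoter of its human counterpart drives the transgene, and the window is the one furthest upstream of 3. Capitals mark TATAAA, searched on both strands.
Apoa1, chr9:46228380-46228629, forward strand: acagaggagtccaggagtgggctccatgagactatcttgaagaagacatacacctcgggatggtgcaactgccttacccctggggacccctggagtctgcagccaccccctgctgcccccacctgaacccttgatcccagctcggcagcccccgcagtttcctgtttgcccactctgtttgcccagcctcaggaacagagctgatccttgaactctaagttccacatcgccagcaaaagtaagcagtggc
Apoa5, chr9:46268358-46268607, forward strand: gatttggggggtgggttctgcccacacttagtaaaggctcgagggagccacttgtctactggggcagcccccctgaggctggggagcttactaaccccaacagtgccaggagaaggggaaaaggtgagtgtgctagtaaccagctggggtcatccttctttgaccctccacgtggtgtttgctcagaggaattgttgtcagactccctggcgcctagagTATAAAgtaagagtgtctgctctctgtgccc
Apob, chr12:7977427-7977676, forward strand: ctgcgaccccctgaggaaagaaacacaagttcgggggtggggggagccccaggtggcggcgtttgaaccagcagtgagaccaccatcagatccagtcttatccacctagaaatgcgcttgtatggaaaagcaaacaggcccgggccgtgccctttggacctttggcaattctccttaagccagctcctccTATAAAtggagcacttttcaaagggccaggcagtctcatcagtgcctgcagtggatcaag
Apom, chr17:35131802-35132051, reverse strand: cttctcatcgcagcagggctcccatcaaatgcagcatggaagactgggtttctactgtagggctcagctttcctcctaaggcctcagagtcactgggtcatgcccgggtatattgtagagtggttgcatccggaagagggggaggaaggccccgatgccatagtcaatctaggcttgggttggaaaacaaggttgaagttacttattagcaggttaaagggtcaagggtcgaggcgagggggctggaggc
Apoe, chr7:19699189-19699438, reverse strand: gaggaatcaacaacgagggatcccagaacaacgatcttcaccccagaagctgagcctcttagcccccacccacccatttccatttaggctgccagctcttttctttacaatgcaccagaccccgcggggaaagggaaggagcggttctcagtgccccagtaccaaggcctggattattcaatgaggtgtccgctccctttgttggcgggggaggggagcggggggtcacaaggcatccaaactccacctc
Windows were held for 8 of the 10 genes, 12 windows in all, out of 32851 windows over all genes. TATAAA was found in 5 of the 12, of which the 2 overlapping Apoa5 windows share 1 match, and in 12.4% of all windows. In the Apoa5 window it began 31 bases before the start and in the Apob window 60 bases before it. AGGTCA, the core letters that many nuclear receptors bind, was found in 2 of the 12, those of Apoc2 and 1 window of Apoa2, and in 14% of all windows. CCAAT was found in both Apoa2 windows and in 33.8% of all windows, and GGGCGG in 0 of the 12 and in 32.7% of all windows. These matches describe the letters and were not tested as binding sites.

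Signals are given as log2 of the background-corrected intensity divided by the 75th percentile of intensities on the same array, so that 0 means a probe as bright as that percentile and 1 unit is a doubling. The level of a probe depends on its own sequence as well as on its RNA, so levels are compared between arrays and never between genes. All 9 genes had a lower mean signal in L1-Tg than in WT, although the differences of Apoa2 and Apoc1 turned slightly positive under quantile normalization (0.04 and 0.02) and under scaling to the array median (both 0.02). The median difference was -0.25, against -0.03 over all 22319 genes, of which 56.9% had a lower mean in L1-Tg. Measured from the median of all genes, it was -0.22 with the 75th percentile, -0.22 with the array median and -0.18 with quantile normalization. Scaling to the array median moved the median of all genes to 0.08 and its share of lower genes to 33.6%, and that share was 46.5% with quantile normalization, 45% without scaling and 46.4% in the matrix the authors scaled.

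None of the 9 genes passed an adjusted p of 0.05 in limma (Benjamini-Hochberg over all genes tested), a threshold that 0.130% of all genes passed, 27 genes higher and 2 (0.00896%) lower in L1-Tg. At an unadjusted p under 0.05 there were 2, Apoa1 and Apoa5, beside 8.86% of all genes, or 4.32% when only lower genes are counted. The L1-Tg and WT pools did not overlap for 3, Apoa1, Apoa5 and Apom, beside 15.9% of all genes, or 8.63% when only lower genes are counted. The methods of the study used a difference index, the difference of the group means divided by the sum of the group SDs on the linear scale, and took genes whose index lay beyond 0.7 in either direction. By that rule 4 genes were picked, Apoa1, Apoa5, Apob and Apom, beside 26.5% of all genes, or 14.7% when only lower genes are counted. The smallest adjusted p in limma among the 9 genes was 0.479.

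**Figure D1:**
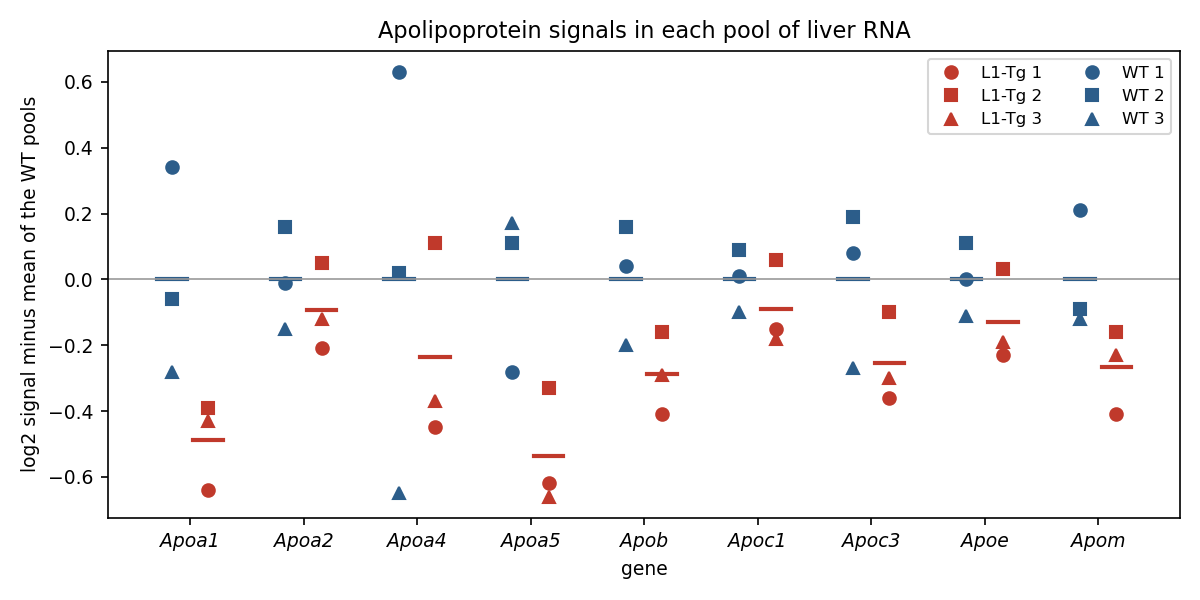
Signal of each of the 9 apolipoprotein genes in each pool of liver RNA (y axis, log2 signal minus the mean of the 3 WT pools; x axis, gene); blue marks are WT pools, red marks L1-Tg pools, and short lines the group means. The L1-Tg pools lie below all WT pools for Apoa1, Apoa5 and Apom, and the group means of Apoa2 and Apoc1, 0.09 apart in each, change order under quantile normalization and array-median scaling.

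Among the proteins of high-density lipoprotein, Apoa1 encodes its main structural protein, which also activates cholesterol esterification by LCAT. Its signal was 7.58, 7.83 and 7.79 in the L1-Tg pools and 8.56, 8.16 and 7.93 in the WT pools. Every L1-Tg pool was below every WT pool, and WT 1 stood well above the other WT pools. The mean was 7.73 ± 0.13 (SD, n = 3) in L1-Tg and 8.22 ± 0.32 (SD, n = 3) in WT, a difference of -0.49 ± 0.18 (SE) with a 95% interval from -0.92 to -0.06, and limma gave an adjusted p of 0.532. On the linear scale the ratio of these means was a change of -28.8%. Leaving out 1 pool at a time gave differences from -0.63 to -0.32. The unadjusted p of Apoa1 in limma was 0.0305, and it was 0.0591 with quantile normalization and 0.0815 with array-median scaling.

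The Apoa1 probe is printed 10 times on each array, which gives a measure of the spread within an array. The SD between its spots was 0.03 to 0.06 on the log2 scale, below the SD between pools of a group. All 10 spots, taken 1 at a time across the arrays, had a lower mean in L1-Tg and no overlap between groups, with differences from -0.53 to -0.45. These spots share their RNA, so they count as 1 measurement per pool.

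Apoa2 encodes the second most abundant protein of high-density lipoprotein and has 2 probes. The brighter one gave 10.55, 10.80 and 10.64 in the L1-Tg pools and 10.75, 10.92 and 10.60 in the WT pools. The groups overlapped, with the highest L1-Tg pool above all WT pools but WT 2. The difference was -0.09 ± 0.12 (SE), with a 95% interval from -0.39 to 0.20, and limma gave an adjusted p of 0.81. The other probe gave 9.90, 10.16 and 9.99 in L1-Tg and 10.07, 10.16 and 10 in WT, a difference of -0.06 ± 0.11 (SE).

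Apom encodes a small carrier of sphingosine 1-phosphate in high-density lipoprotein. Its signal was 6.62, 6.86 and 6.79 in the L1-Tg pools and 7.24, 6.94 and 6.90 in the WT pools. The groups did not overlap, but the gap between the highest L1-Tg and the lowest WT pool was small beside the distance of WT 1 from the other WT pools. With quantile normalization and array-median scaling the groups overlapped. The difference was -0.27 ± 0.13 (SE), with a 95% interval from -0.58 to 0.05, and limma gave an adjusted p of 0.589.

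Among the proteins that act on triglyceride-rich lipoproteins, Apoa5 encodes a scarce plasma protein that promotes the action of lipoprotein lipase. Its signal was 3.84, 4.13 and 3.81 in the L1-Tg pools and 4.18, 4.58 and 4.64 in the WT pools. Every L1-Tg pool was below every WT pool, and WT 1 was close to L1-Tg 2. With array-median scaling and in the matrix scaled by the authors, the groups overlapped. The mean was 3.93 ± 0.18 (SD, n = 3) in L1-Tg and 4.46 ± 0.25 (SD, n = 3) in WT. The difference of -0.54 ± 0.16 (SE), with a 95% interval from -0.92 to -0.15, was the largest of the 9, and limma gave an adjusted p of 0.479. On the linear scale it was a change of -31.0%. Leaving out 1 pool at a time gave differences from -0.68 to -0.45, and WT 1 was here the lowest WT pool, whereas it was the highest for Apoa1, Apoa4 and Apom.

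The genes whose signals over the 6 arrays were most like that of Apoa5 were Cnr2, which encodes a cannabinoid receptor, with a Pearson r of 0.995, Tmem38a, which encodes an intracellular cation channel, with 0.994, and Polg2, which encodes a subunit of the mitochondrial DNA polymerase, with 0.993. The arrays share their groups and 42 genes had an r above 0.95, so these values describe the likeness of 6 points. None of the apolipoprotein genes was among the top 3.

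Apoc3 encodes an inhibitor of lipoprotein lipase and of remnant uptake. Its signal was 9.13, 9.40 and 9.20 in the L1-Tg pools and 9.58, 9.69 and 9.22 in the WT pools. WT 3 lay among the L1-Tg pools, and the other WT pools lay above them. The difference was -0.25 ± 0.15 (SE), with a 95% interval from -0.62 to 0.11, and limma gave an adjusted p of 0.638.

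Apoc1 encodes a small protein that slows the uptake of lipoproteins. Its signal was 10.16, 10.37 and 10.13 in the L1-Tg pools and 10.32, 10.39 and 10.21 in the WT pools. The groups overlapped, and L1-Tg 2 was close to the highest WT pool. The difference was -0.09 ± 0.11 (SE), with a 95% interval from -0.35 to 0.18, and limma gave an adjusted p of 0.80.

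Apoa4 encodes a protein of chylomicrons and high-density lipoprotein that the mouse makes in the intestine and the liver. Its signal was 2.15, 2.71 and 2.23 in the L1-Tg pools and 3.23, 2.62 and 1.96 in the WT pools. The WT pools held both the highest and the lowest value of the 6. The difference was -0.24 ± 0.33 (SE), with a 95% interval from -1.04 to 0.56, and limma gave an adjusted p of 0.822. It was 0.07 without WT 1, so its sign rested on that pool. Its WT pools had an SD of 0.64, the widest spread among the 9 genes.

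Apob encodes the backbone of very-low-density lipoprotein and has 2 probes. The brighter one gave 7.23, 7.48 and 7.34 in the L1-Tg pools and 7.68, 7.79 and 7.43 in the WT pools. Only L1-Tg 2 and WT 3 overlapped. The difference was -0.28 ± 0.13 (SE), with a 95% interval from -0.60 to 0.03, and limma gave an adjusted p of 0.576. The other probe gave 6.29, 6.73 and 6.46 in L1-Tg and 6.79, 6.86 and 6.79 in WT, with no overlap. Its difference was -0.32 ± 0.13 (SE), and limma over all probes gave an adjusted p of 0.569.

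Apoe encodes the ligand through which remnants bind receptors of the LDL receptor family. Its signal was 10.39, 10.64 and 10.42 in the L1-Tg pools and 10.61, 10.73 and 10.50 in the WT pools. L1-Tg 2 lay above 2 of the WT pools, so the groups overlapped. The mean was 10.48 ± 0.14 (SD, n = 3) in L1-Tg and 10.61 ± 0.11 (SD, n = 3) in WT. The difference was -0.13 ± 0.11 (SE), with a 95% interval from -0.40 to 0.15, and limma gave an adjusted p of 0.724. The interval holds changes in both directions, so no difference in the mouse gene was detectable with 3 pools a group. Other scalings gave Apoe a difference of -0.03 (quantile normalization), -0.02 (array median) and -0.07 (no scaling).

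The Apoe probe is also printed 10 times, and 9 of these spots were usable on every array. The SD between spots was 0.12 to 0.16, about as large as the SD between pools, and wider than for Apoa1. The mean level of a spot over the arrays had an SD of 0.14 between spots, so this spread was mostly shared by the arrays. The group difference had an SD between spots of 0.02, as for Apoa1. The 9 spots had differences from -0.16 to -0.10, all with a lower mean in L1-Tg, and in 0 of them were the groups apart.

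**Figure D2:**
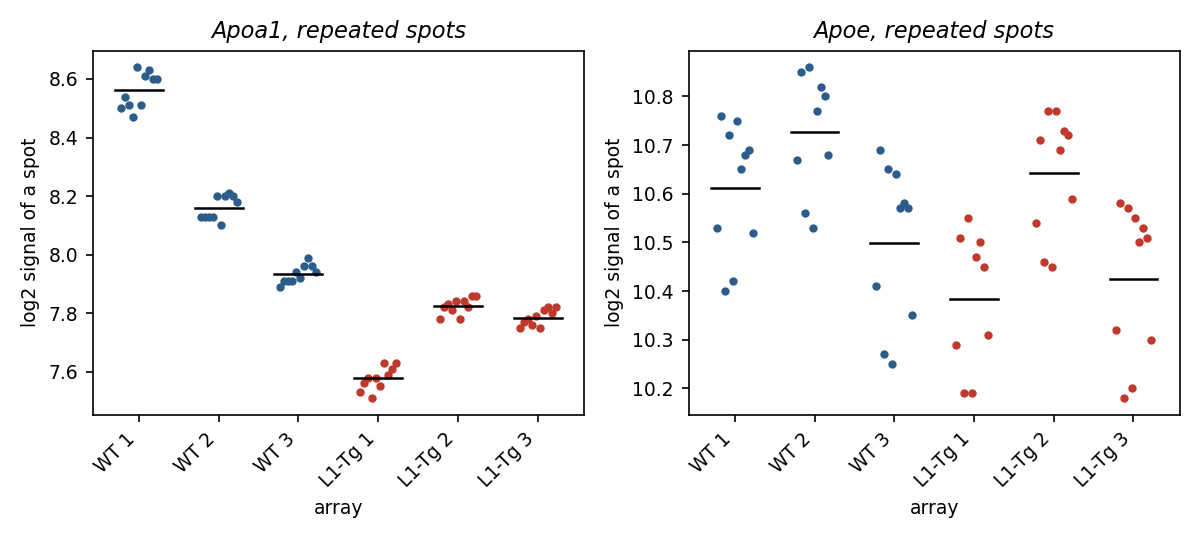
Log2 signal of the repeated spots of the Apoa1 probe (left) and the Apoe probe (right) on each array (x axis); each dot is 1 spot and each line the mean of an array, with WT in blue and L1-Tg in red. The Apoa1 spots of each array form a tight group and the L1-Tg arrays sit below the WT arrays, whereas the Apoe spots of all arrays overlap.

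None of the probes was saturated, so no value is a bound. The highest intensity reached was 78% of the saturation value for Apoa2, 68.3% for Apoe, 55.6% for Apoc1 and 33.3% for Apoc3, and at most 15.3% for the other genes. Apoa2, Apoe and Apoc1, which came closest to that value, also had the smallest differences between groups, and the part of the one in the other was not tested.

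**Figure D3:**
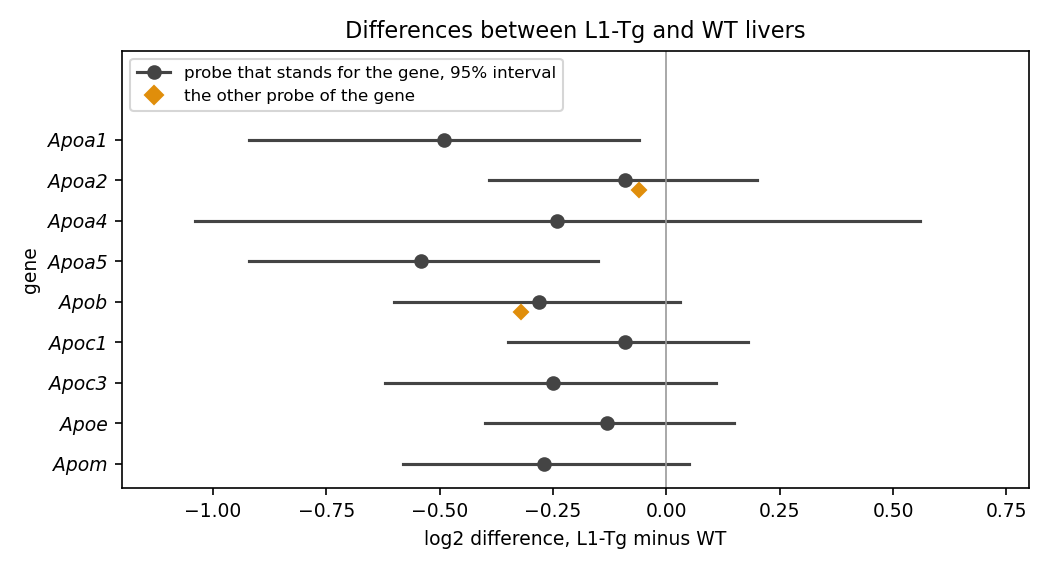
Log2 difference between L1-Tg and WT (x axis) for each gene (y axis); dots are the probe that stands for the gene, lines its 95% interval from limma (3 pools a group), and diamonds the other probe of Apoa2 and Apob. Intervals lie below 0 for Apoa1 and Apoa5 and hold 0 for the other 7 genes, and the signs of Apoa2 and Apoc1 turn under quantile normalization and array-median scaling.

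By chromosome, the 4 neighbors on chromosome 9 had a median difference of -0.37 and a range from -0.54 to -0.24. Of these, Apoc3 was at -0.06 with quantile normalization and Apoa4 at 0.07 without WT 1. Apoc1 and Apoe on chromosome 7 had differences of -0.09 and -0.13, with a median of -0.11. Apoc4, their neighbor, had 7.51, 7.54 and 7.46 in L1-Tg and 7.72, 7.63 and 7.62 in WT. These pools did not overlap, with a difference of -0.15 ± 0.09 (SE) and an adjusted p of 0.629 in limma. Neither cluster was tested against the other, and Apoc1 and Apoe were also among the genes that came closest to the saturation value.

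The order of the L1-Tg pools turned on the scaling. With the 75th percentile, L1-Tg 1 had the lowest signal of the 6 for 6 of the 9 genes and L1-Tg 3 for 2, and Apoa4 was lowest in WT 3. L1-Tg 2 had the highest scaled signal within L1-Tg for all 9 genes, but in the unscaled intensities it was highest there for 1 gene, Apoa4, and lowest for 4, whereas L1-Tg 1 was highest for 6 and lowest for 0. Within WT, WT 3 was the lowest for 8 genes with scaling and for 7 without it. Among all 6 pools, with scaling, WT 2 was the highest for 5 genes, WT 1 for 3 and WT 3 for 1. The 75th percentile used for scaling was itself 378 in L1-Tg 1 and 297 in L1-Tg 2, and lay between 314 and 340 on the other arrays. A gene with equal raw intensity on these arrays gets a low value in L1-Tg 1 and a high one in L1-Tg 2. Without scaling, the groups did not overlap for 4 genes, Apoa1, Apoa5, Apob and Apom, beside 8.34% of all genes, and the raw intensities of Apoa1 were 67325 to 74282 in L1-Tg and 83080 to 119275 in WT.

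**Figure D4:**
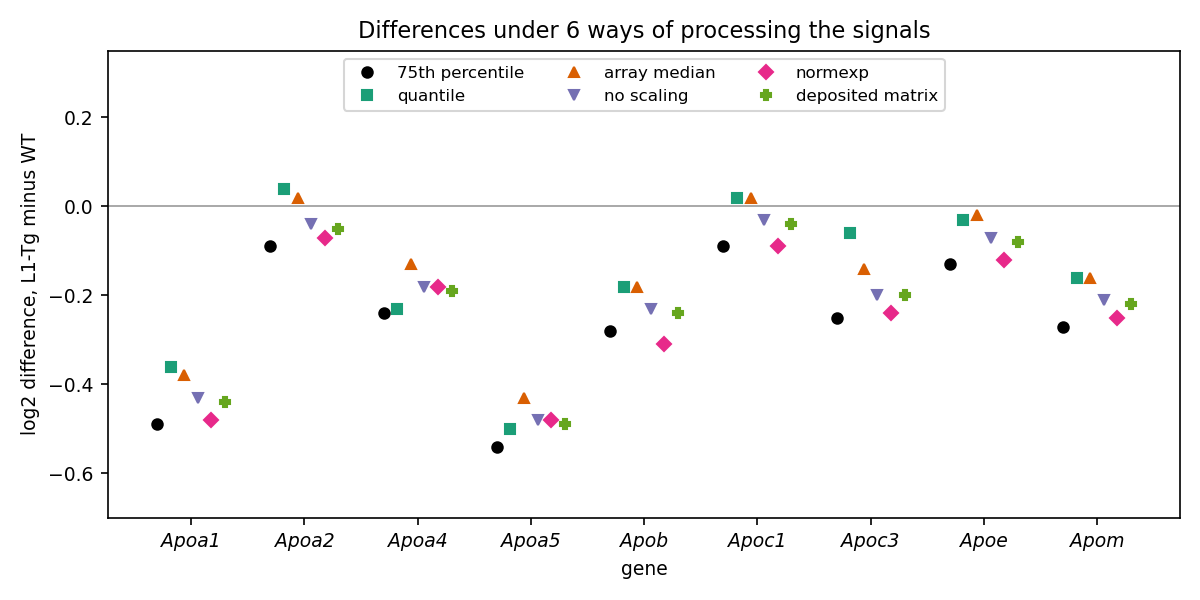
Log2 difference between L1-Tg and WT (y axis) for each gene (x axis) under 6 ways of processing the signals, from the 75th percentile (black) to the matrix scaled by the authors (green plus signs). Apoa1 stays between -0.49 and -0.36 and Apoa5 between -0.54 and -0.43, and Apoa2 and Apoc1 lie above 0 under quantile normalization and array-median scaling.

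All arrays came from 1 slide and 1 scan time. WT filled row 1 of the slide and L1-Tg filled row 2, which means that row and genotype cannot be told apart. Arrays correlated at 0.985 to 0.994 within groups and 0.979 to 0.992 between them. In RNA of whole liver, fewer cells of a type and less RNA per cell cannot be told apart. All 7 hepatocyte markers, such as Alb and Ttr, were well above background on all arrays, with a summed signal of 5410 to 6770 times the 75th percentile in L1-Tg and 5910 to 6490 in WT. Their median difference was -0.08, and it was 0.01 with quantile normalization and 0.03 with the array median.

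Markers of other cells were measured beside these results, and their part in them was not tested. The 7 Kupffer cell markers all had a higher mean in L1-Tg, with sums of 112 to 137 against 64.9 to 133. Cd5l gave 5.93, 5.67 and 5.94 in L1-Tg and 4.75, 5.09 and 5.79 in WT, so WT 3 lay with the L1-Tg pools. Of 6 lymphocyte markers, 5 had a higher mean in L1-Tg, with a median difference of 0.45 against 0.32 for the Kupffer cell markers. Their sums were 7.08 to 9.19 in L1-Tg and 8.11 to 9.08 in WT, carried by Cd3e, the 1 marker with a lower mean, and 1.74 to 3.44 against 0.992 to 2.2 without it. Sums ran from 96.4 to 99 against 92.4 to 98.9 for 5 endothelial markers, and from 0.524 to 0.745 against 0.552 to 0.976 for 4 cholangiocyte markers. L1-Tg 2 stood apart in markers of 2 other cell types. The 2 erythroid markers summed to 200 in L1-Tg 2 and to 97.2 to 114 in the other pools. The 4 pancreatic acinar markers summed to 33.7 in L1-Tg 2, 2.46 and 3.19 in L1-Tg 1 and L1-Tg 3, and 2.16 to 2.38 in WT. Ctrb1 gave 1.1, 4.17 and 0.98 in L1-Tg and 1.11, 1.13 and 1 in WT, and Cpa1 and Pnlip were likewise high in L1-Tg 2 alone. Cela2a was higher than in WT in every L1-Tg pool, at -2.19, 1.5 and 0.25 against -3.92 to -2.97. Without L1-Tg 2 the median difference of the 9 apolipoproteins was -0.33. Of 6 enterocyte markers, Alpi and Lct were not well above background on any array and Sis and Vil1 on 1 array each. Fabp2, which carried most of the enterocyte sum of 31.8 to 43.3 in L1-Tg and 40.3 to 75.2 in WT, had a difference of -0.56 ± 0.25 (SE).

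Other genes of lipoprotein metabolism were read from lists written by gene function. In none of these lists did a gene pass the adjusted threshold in limma, and the sign of each list's median was the same under the 75th percentile, the array median, quantile normalization, normexp, no scaling and the matrix scaled by the authors. Of 10 other plasma apolipoproteins, 7 had a higher and 3 a lower mean in L1-Tg, with a median of 0.04. Apoc4 had the smallest p, followed by Saa4, an apolipoprotein of high-density lipoprotein, with a difference of 0.22 ± 0.16 (SE), and Apof, with 0.13 ± 0.13 (SE). The 9 apolipoproteins described above and these 10 thus lay around medians on opposite sides of 0, a difference between lists that was not tested.

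The apolipoprotein L family, intracellular proteins that share only part of their name with those of plasma, had 7 genes tested and a median of 0.58, which was 0.14 after normexp background correction. That median rested on 2 dim genes, Apold1 and Apol10b, which were well above background on 5 and 4 arrays only. Both passed the filter through 1 group only and had a higher mean in L1-Tg. The 5 genes seen on all arrays had a median of 0.06. Apold1 gave -2.36, -2.79 and -3.10 in L1-Tg and -3.77, -3.51 and -3.87 in WT. Apol9a gave 7.68, 7.39 and 7.76 in L1-Tg and 6.65, 7.02 and 7.26 in WT. Apol9b gave 7.84, 7.65 and 8.07 in L1-Tg and 6.93, 7.33 and 7.56 in WT. Of the 5 genes seen on all arrays the pools did not overlap for 2, Apol9a and Apol9b, beside 15.9% of all genes. Their differences were 0.63 ± 0.19 (SE) and 0.58 ± 0.19 (SE), with adjusted p of 0.472 and 0.502 in limma. Apold1 is left out of that count because it passed the filter through 1 group only. Its pools were apart as well, with a difference of 0.96 ± 0.21 (SE) and an adjusted p of 0.33 in limma. With normexp the difference of Apold1 was 0.32, and those of Apol9a and Apol9b were 0.64 and 0.59. Apol9a and Apol9b are near-identical copies, so their probes may share RNA.

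Of 15 genes of lipoprotein assembly and secretion, 11 had a higher mean in L1-Tg, with a median of 0.06. Abcg1, a sterol exporter, gave 1.40, 1.36 and 1.42 in L1-Tg and 1.1, 0.96 and 1.18 in WT, a difference of 0.32 ± 0.09 (SE) with an adjusted p of 0.479 in limma. Apobec1, whose product edits the Apob transcript, differed by 0.25 ± 0.11 (SE), and Mia2, which helps to load large cargo in the endoplasmic reticulum, by 0.18 ± 0.09 (SE). The pools did not overlap for these 3 of 15, beside 15.9% of all genes. Mttp, which encodes the protein that loads lipid onto apoB, had a difference of 0.01 ± 0.09 (SE), and is named here because it acts on apoB and not by its p.

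Of 12 genes of lipoprotein remodelling in plasma, 7 had a higher and 5 a lower mean, with a median of 0.09. Lipc, the hepatic lipase, gave 1.46, 1.43 and 1.30 in L1-Tg and 1.75, 1.77 and 1.58 in WT, without overlap. Its difference was -0.31 ± 0.10 (SE), with an adjusted p of 0.506 in limma. Pltp, which transfers phospholipid between particles, differed by 0.28 ± 0.12 (SE), and Angptl4, an inhibitor of lipoprotein lipase, by -0.37 ± 0.17 (SE).

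Of 12 genes of lipoprotein receptors and their regulators, 6 had a higher and 6 a lower mean, with a median of 0.04. Scarb1, the receptor that takes up cholesterol from high-density lipoprotein, gave 4.48, 4.52 and 4.29 in L1-Tg and 4.96, 4.72 and 4.73 in WT. These pools did not overlap, and the difference was -0.38 ± 0.11 (SE) with an adjusted p of 0.481 in limma. Lrp1, a remnant receptor, differed by -0.17 ± 0.10 (SE), and Vldlr, a receptor for triglyceride-rich particles, by 0.60 ± 0.36 (SE). The pools of Vldlr overlapped, at 0.60, 0.12 and 0.09 in L1-Tg and 0.13, -1.14 and 0.03 in WT, so WT 2 stood apart.

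Of 22 transcription factors and coactivators linked to apolipoprotein genes, 18 had a lower mean in L1-Tg, with a median of -0.16, and 13 did with the array median, where their median was -0.05. Rora differed by -0.25 ± 0.09 (SE), Nr2f1 by -0.26 ± 0.10 (SE) and Ppargc1a by -0.71 ± 0.31 (SE). The pools of Ppargc1a overlapped, at 0.74, 1.01 and 0.5 in L1-Tg and 1.24, 0.99 and 2.14 in WT. Hnf4a, which acts on many promoters of hepatocytes, gave 7.52, 7.57 and 7.29 in L1-Tg and 7.60, 7.61 and 7.55 in WT. Its pools overlapped, with a difference of -0.13 ± 0.11 (SE).

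Feeding state and time of day move many liver genes, so lists for both were read beside these results. Of 10 genes of the fasting response, 9 had a lower mean in L1-Tg, with a median of -0.41. Pck1, of gluconeogenesis, gave 8.11, 8.61 and 8.19 in L1-Tg and 8.68, 8.69 and 8.91 in WT, and Cpt1a, of fatty acid oxidation, differed by -0.22 ± 0.09 (SE). Of 12 clock genes, 8 had a lower mean, with a median of -0.13. With the array median and with quantile normalization 7 were lower, and the medians were -0.02 and -0.05. Per1 gave 2.76, 2.62 and 2.93 in L1-Tg and 3.35, 3.31 and 3.6 in WT, with an adjusted p of 0.293 in limma. Ciart differed by -0.65 ± 0.16 (SE) and Cry2 by -0.31 ± 0.09 (SE). The part of feeding and sampling time in the values of the apolipoproteins was not tested.

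**Figure D5:**
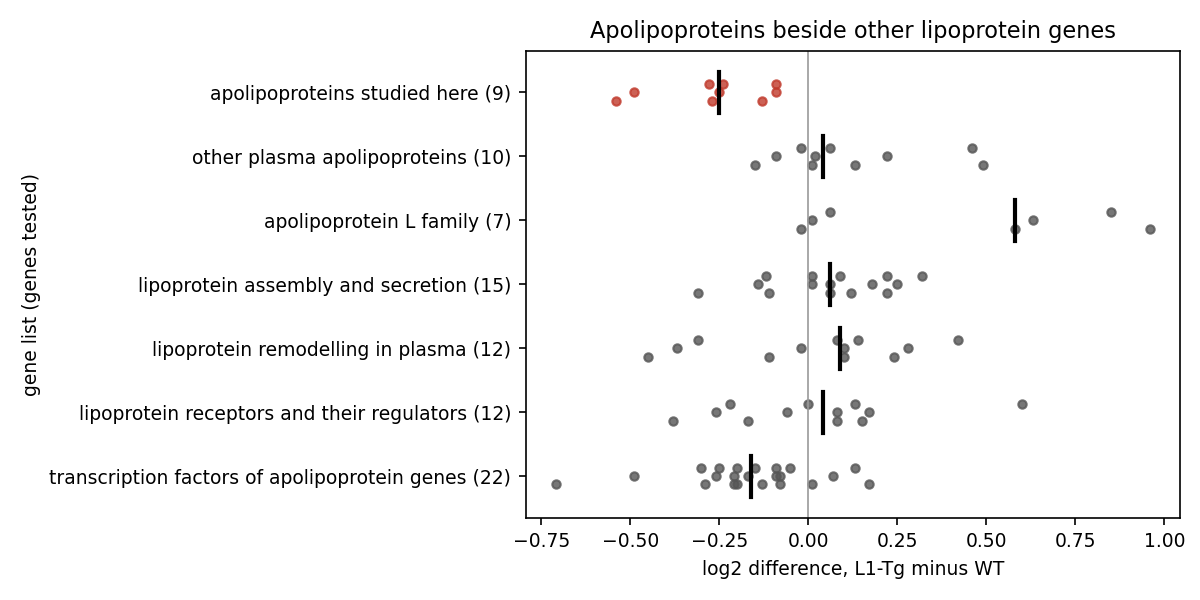
Log2 difference between L1-Tg and WT (x axis) of each gene tested in 7 lists (y axis, with the number of genes); dots are genes and black lines medians. The 9 apolipoproteins (red) have a median of -0.25 and the 10 other plasma apolipoproteins one of 0.04, and the signs of Apoa2 and Apoc1 turn under quantile normalization and array-median scaling.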

How the data were processed

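The members and gene lists were chosen with earlier results of these data known. Cy3-labeled cRNA of 6 pools was hybridized to 1-color Agilent arrays. The authors read the scans with Agilent Feature Extraction (version 10.10.1.1). The processed signal they deposited is an intensity on the linear scale, background-subtracted and not scaled between arrays. The authors also deposited marks of 0 or 1 for each spot (other values than signals) and a matrix that equals the processed intensity times 1 factor per array, of 2.46 to 2.98. The genotype in the labels set the groups.

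Control spots, non-uniform spots and population outliers among repeated spots were left out, and the spots of each of 432 repeated probes were averaged. Log2 signals were taken minus the 75th percentile of the array. Of 28685 probes with a RefSeq-style name, 27235 matched a symbol in the GRCm38.p6 gene table of RefSeq. Probes without a match were grouped by their sequence name, and each such name counted as a gene in all shares of genes. A gene was represented by its brightest probe, and a gene was tested if every array of WT or of L1-Tg had it well above background, as held for 22319 genes. The test was a two-sided linear model with moderated variances, limma 3.58.1 in R 4.3.3, at a threshold of 0.05 after Benjamini-Hochberg adjustment, with files read by the packages data.table and jsonlite. The pipeline was tested on simulated data. Precision is limited by having 3 arrays a group, and 53.1% to 59.2% of spots were well above background. The p-values of limma weigh the difference between groups against the spread between pools, with moderated variances.

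Named were all members, the 3 genes with the smallest p in each list other than those of cell markers, the 3 genes most like the member with the smallest p, and Npc1l1. Hnf4a, Mttp and single marker genes were named for their function, after their values were seen. Replicate numbers were not used as pairs in the main fit, because they are not said to pair pools. Same-numbered arrays shared a column of the slide and deviated from their group means with correlations of -0.16, 0.11 and 0.02. Alternatives were other scalings, filters, probe rules, variance models, index thresholds and each array left out.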

Additional observations from a re-analysis of the deposited data

How the results depend on the processing

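The count of apolipoproteins past the adjusted threshold was 0 under every alternative run. The median difference of the 9 measured genes stayed negative. The signs of Apoa2 and Apoc1 turned under quantile normalization (0.04 and 0.02) and array-median scaling (both 0.02), and that of Apoa4, -0.56 to 0.07 over pools left out, without WT replicate 1 (0.07). With quantile normalization, array-median scaling and unmoderated variances, 1 apolipoprotein instead of 2 had an unadjusted p under 0.05. That 1 was Apoa5 each time, and Apoa1 was lost, beside 9.31%, 8.46% and 8.21% of all genes, against 8.86%. The count was 3, with Apob added, under normexp, the mean of all probes of a gene and a mean-variance trend (9.52%, 9.03% and 9.37%). The count past the difference index was 2 instead of 4 with array-median scaling (24.4% of all genes, against 26.5%) or a modulus above 1 (13.2%), and 0 when a 1.5-fold change was also required (3.74%). The count of genes whose groups do not overlap was 1 instead of 3, Apoa1, with array-median scaling (13.8% of all genes, against 15.9%). It was 2 with quantile normalization, Apoa1 and Apoa5 (15.9%), and in the matrix scaled by the authors, Apoa1 and Apom (15.3%). With Apob added it was 4 without scaling (8.34%), with normexp (16.2%) and with the mean of all probes of a gene (16%). Over the whole array, 29 genes were called, 10 without the filter on dim probes and 0 without moderated variances. The causes were not tested. Keeping spots called population outliers, an alternative chosen after seeing the data, moved none of these counts by over 1.5 times.

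With the replicate block, which treats same-numbered pools as pairs, 11 genes were called over the whole array and 1 apolipoprotein, Apoa5, had an unadjusted p under 0.05, beside 8.28% of all genes. Leaving out 1 pool at a time gave 15 to 35 genes called, 0 to 4 apolipoproteins at an unadjusted p under 0.05, 3 to 8 past the index, 3 to 7 without overlap and a median of -0.38 to -0.16. The number called fell to 17 without L1-Tg 1 or WT 1 and to 15 without L1-Tg 2, L1-Tg 3 or WT 2. Apolipoproteins at an unadjusted p under 0.05 numbered 0 without L1-Tg 3 (5.06% of all genes), 4 without WT 3 (12.5%) and 1 without any other pool (6.71% to 8.48%). That 1 was Apoa5 each time, so with a pool left out Apoa1 was under 0.05 only without WT 3. Without L1-Tg 2 the index took 8 and 7 did not overlap, beside 34% and 27.4% of all genes. Without WT 3 it took 8 and 5 did not overlap, beside 38.6% and 32%. With any other pool left out, the index took 3 or 4, beside 28.3% to 34% of all genes. In those fits 3 did not overlap, beside 21.3% to 27.6% of all genes. With 3 pools a group the error of a difference, 0.13 for the median gene, limits what can be detected, and dim probes limit which genes could be tested.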
